A study of Homo sapiens with 12 samples.

Results

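The genes described here are 47 genes of the machinery that opens replication origins and builds and runs the replication fork. They were taken by name from a list of origin recognition, licensing, origin firing, polymerase, clamp loader, fork protection and chromatin assembly genes, and no threshold on a measured value was part of that choice, but the list was drawn up with earlier results of these data known. All 47 had a probe set on the array that passed the filter on low values, out of 13225 genes that did so. The cells were MDA-MB-231, a line derived from a human breast tumour that lacks oestrogen and progesterone receptors. They were seeded sparsely on day 1 and transfected on day 2 with siRNA at 33 nM: a control siRNA (siControl), siRNA mix #1 against YAP and TAZ (siYAP/TAZ#1, here mix 1) or siRNA mix #2 (siYAP/TAZ#2, here mix 2). YAP and TAZ, encoded by YAP1 and WWTR1, are transcriptional coactivators that bind DNA through TEAD factors. Medium was changed on day 3 and total RNA was taken on day 4. Each of the 3 groups had 4 biological replicates, lettered A to D, which were grown and harvested side by side, so the p-values measure the spread between cultures of 1 experiment in 1 cell line. The knockdown was transient and no group without siRNA was measured here.

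Replication starts at origins. The origin recognition complex (ORC) marks them, and CDC6 and CDT1 load the MCM helicase there while the cell is not yet in S phase; geminin (GMNN) then blocks CDT1 so that no origin is used again. At the start of S phase the kinase CDC7 with its activator DBF4 allows CDC45 and the GINS complex to join MCM, which forms the active CMG helicase. Polymerase alpha with primase starts each new strand, the RFC clamp loader places the ring-shaped clamp PCNA, and polymerases epsilon and delta extend the leading and lagging strands. FEN1, DNA2 and LIG1 process and join the Okazaki fragments, RPA coats single-stranded DNA, and the TIMELESS, TIPIN and CLSPN proteins keep the fork stable. Many of these genes are known targets of E2F factors in cycling cells.

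All 47 genes were lower with each siRNA mix than with control siRNA. In the comparison of mix 1 with control, 47 of 47 passed an adjusted p of 0.05 (limma, Benjamini-Hochberg over all genes tested) as lower and 0 as higher; over all genes, 32.3% were called lower and 34.8% higher. In the comparison of mix 2 with control 47 of 47 were called lower and 0 higher, against 31.9% of all genes called lower and 36.7% called higher. The fall was at least 2-fold for 37 genes with mix 1 (8.28% of all genes) and for 41 with mix 2 (9.35% of all genes). The median log2 change of the 47 genes was -1.60 with mix 1 and -1.86 with mix 2, while the median over all genes was 0.00 and 0.03. In terms of linear level, the median gene kept 32.9% and 27.6% of its control level. The 4 mix 1 arrays lay below the 4 control arrays for all 47 genes, and the 4 mix 2 arrays did so for 46, RPA3 being the exception. Such separation occurred for 31.0% of all genes with each mix. The 2 comparisons share the 4 control arrays. The counts are partly set by the choice of members: ORC4, POLD4 and POLE4, subunits of complexes in the list, are not among the 47, and ORC4 and POLD4 rose with each mix while POLE4 fell with mix 1 alone.

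**Figure D1:**
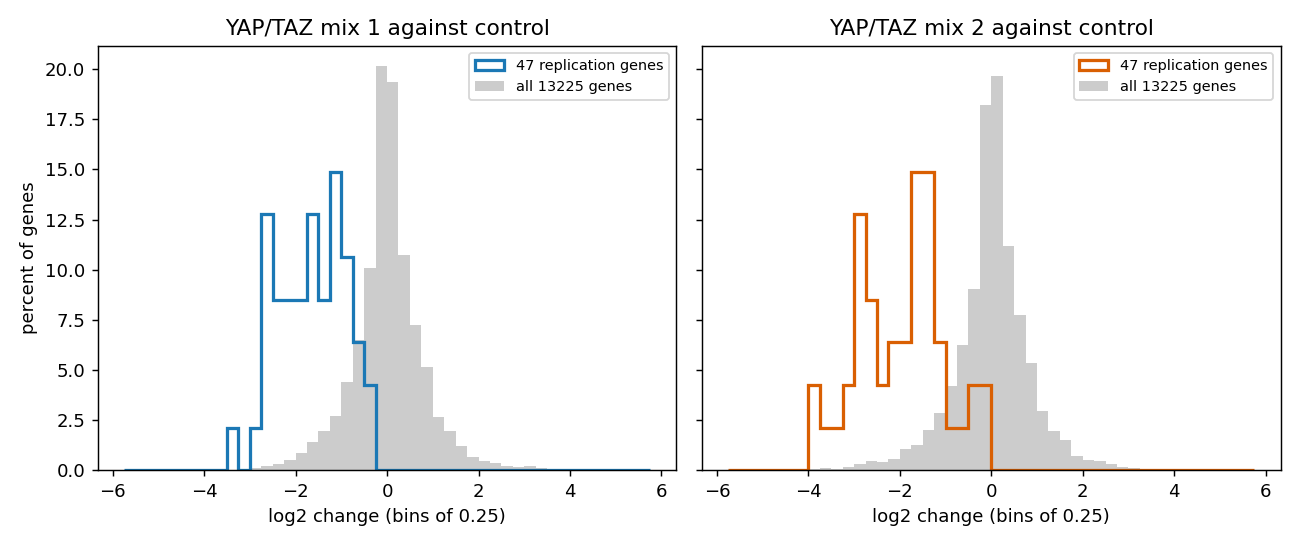
Distribution of log2 changes against control siRNA for mix 1 (left) and mix 2 (right). The x axis is the log2 change in bins of 0.25 and the y axis is the percentage of genes; grey bars are all 13225 genes and the coloured outline is the 47 replication genes. The outline lies wholly below 0 in both panels, between -3.30 and -0.36 for mix 1 and between -3.92 and -0.22 for mix 2.

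Many of the falls were among the deepest measured. Ranked by log2 change, 12 of the 47 genes were among the 100 lowest of 13225 with mix 1 and also 12 with mix 2. The 1322 lowest genes held 39 of the 47 with mix 1 and 42 with mix 2. The arrays read RNA of whole cultures, so fewer cells in S phase and less of each mRNA per cell cannot be told apart in these data.

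The promoters of several of these genes hold sequences of the E2F type. Whether these have a part in the changes was not tested. Examples are shown from the 12 genes with a match wholly before the start, leaving out GMNN, POLA2, POLE and LIG1. Windows from 250 bases before to 50 bases after each annotated start (RefSeq, GRCh38.p14) were searched on both strands. The E2F motif was searched as TTTCCCGC, TTTCGCGC, TTTGCCGC or TTTGGCGC. The stretches below lie before the start, read 5′ to 3′ on the strand of the gene, and have the matched letters in capitals; a match on the opposite strand appears as the reverse complement. They are CDT1 (chr16:88803714-88803788, plus strand), CDC7 (chr1:91501004-91501111, plus strand, 2 matches), GINS2 (chr16:85688955-85689025, minus strand), POLA1 (chrX:24693741-24693828, plus strand), RFC3 (chr13:33818054-33818141, plus strand), PCNA (chr20:5126634-5126721, minus strand), TIPIN (chr15:66356700-66356791, minus strand) and ORC3 (chr6:87590083-87590134, plus strand). Those of TIPIN are 2 matches on opposite strands that overlap, and ORC3 is shown as a gene that holds a match and changed little.
CDT1: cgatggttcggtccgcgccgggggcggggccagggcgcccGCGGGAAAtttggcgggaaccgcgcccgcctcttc
CDC7: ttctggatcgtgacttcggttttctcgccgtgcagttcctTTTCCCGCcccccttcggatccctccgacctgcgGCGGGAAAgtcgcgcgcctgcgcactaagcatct
GINS2: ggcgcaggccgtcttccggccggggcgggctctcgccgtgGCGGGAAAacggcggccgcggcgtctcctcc
POLA1: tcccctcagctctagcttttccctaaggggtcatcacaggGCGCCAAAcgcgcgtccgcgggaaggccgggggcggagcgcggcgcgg
RFC3: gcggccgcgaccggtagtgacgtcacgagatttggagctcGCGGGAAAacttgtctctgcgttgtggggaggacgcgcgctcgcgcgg
PCNA: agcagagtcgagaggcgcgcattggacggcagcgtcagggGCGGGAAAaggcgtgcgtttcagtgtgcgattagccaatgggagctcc
TIPIN: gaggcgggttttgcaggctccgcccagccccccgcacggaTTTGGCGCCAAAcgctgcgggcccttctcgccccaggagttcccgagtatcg
ORC3: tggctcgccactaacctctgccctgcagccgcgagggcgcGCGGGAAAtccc

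Of the 47 genes, 40 had a promoter window. An E2F match occurred in at least 1 window of 18 of these 40 genes (45.0%) and of 680 of the 10667 tested genes with a window (6.37%). In 12 of the 18 genes a match lay wholly before the start. The other motifs were nearer to their share over all tested genes: CCAAT, the box bound by NF-Y, was found in 21 members (52.5%) against 43.0% of tested genes, the E-box CACGTG in 6 (15%) against 12.4%, and the TEAD motif GGAATG in 9 (22.5%) against 15.2%. The CHR motif, TTTGAA or TTCGAA, was found in 2 members (5.0%) against 15.6% of tested genes. The median GC content of the windows was 65.3% for the members and 64.7% for the tested genes. The 18 members with an E2F match had median log2 changes of -1.92 with mix 1 and -2.24 with mix 2, and the 22 without had -1.58 and -1.76. The ranges overlapped widely, from -3.30 to -0.36 with and from -3.0 to -0.37 without a match for mix 1. Over all tested genes the medians were -0.13 and -0.10 with a match, and 0.01 and 0.03 without. A match is a description of these letters and was not tested as a binding site. Many of the listed genes were already known E2F targets, so their higher share of matches is not an independent result. The genes with no window here were RECQL4, DNA2, RPA3, DSCC1, RPA2, POLD3 and GINS4.

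The arrays were checked on the targeted genes and on markers. The mean log2 level of YAP1 was 11.16 in the control arrays and 8.15 and 8.09 after mix 1 and mix 2, which left 12.4% and 11.9% of its control level; WWTR1 fell from 11.40 to 9.06 and 8.95. Their further probe sets also gave lower levels with each mix. The line's own markers VIM, EGFR, CD44 and AXL were between 11.64 and 14.29 in the control arrays, whereas PGR (3.56) and CDH1 (3.98) were near background and ESR1 was at 6.31. Of 9 measured markers of leukocytes, endothelium and fibroblasts, 5 were bright enough to be tested; CD14, PECAM1 and PDGFRB were called higher with each mix and 0 were called lower. The summed marker level was 8.54 to 8.73 log2 in the control arrays, 9.54 to 9.66 with mix 1 and 9.37 to 9.44 with mix 2. PECAM1 had a mean of 6.54 in the control arrays and of 8.62 and 7.88 after the mixes, CD14 one of 5.15 and then 6.26 and 6.39, and PDGFRB one of 5.90 and then 6.57 and 6.78. CD3E (6.17) and VWF (5.57) were bright enough to be tested and were not called with either mix. CD14 lay below the filter value of 5.46 in the control arrays and passed the filter, a mean over all arrays, through its levels with the mixes. Its rise thus started near background. Also below that value or at it in the control arrays were PTPRC (4.04), CDH5 (3.97), LUM (3.19) and DCN (5.46), which were not tested. Of these, PTPRC and CDH5 stayed at 4.47 or less, and LUM read 4.25 and 5.41. The part of these markers in the results was not tested. The 3′ minus 5′ difference of the GAPDH control probe sets, a sign of RNA quality, was 0.39 ± 0.05 log2 in the control arrays, 0.43 ± 0.08 after mix 1 and 0.38 ± 0.04 after mix 2 (SD over 4 arrays). That of ACTB was 1.69 ± 0.29, 1.92 ± 0.28 and 1.53 ± 0.22. Exact two-sided permutation tests of mix against control gave p of 0.314 or more (the lowest p possible with 4 against 4 is 0.0286). The same tests of mix 2 against mix 1 gave 0.343 for GAPDH and 0.114 for ACTB. They did not pair arrays by letter, and at each letter the ACTB difference was higher with mix 1 than with control siRNA.

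The changes differed in size by role. The lowest medians with mix 1 were those of fork protection (-2.51), licensing (-2.02) and Okazaki fragment maturation (-2.01), and with mix 2 those of licensing (-3.19), the CMG and firing group (-2.71) and Okazaki fragment maturation (-2.66). RPA had the median nearest to 0 under each mix, -0.83 and -0.71, and origin recognition followed with -1.14 and -1.24. The role groups hold 2 to 7 genes each, so these medians rest on few genes. The licensing median is the value of CDT1 on its brightest probe set; its other probe set gave -1.93 and -2.19, and with the latter value licensing would not be the lowest group with mix 2.

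**Figure D2:**
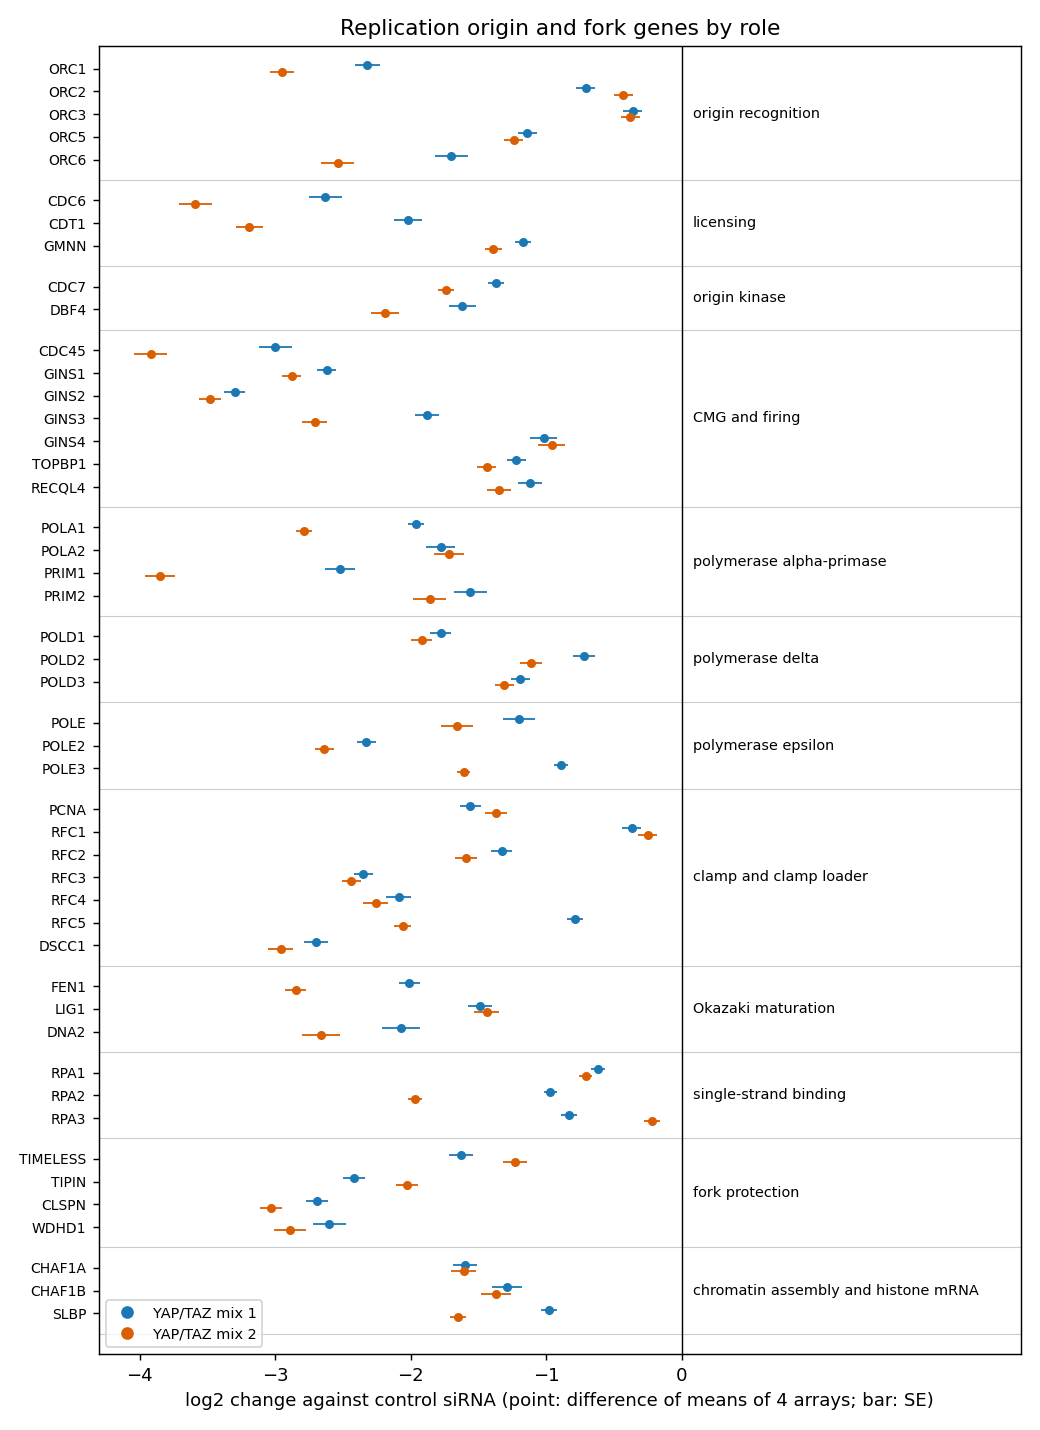
Log2 change of each of the 47 genes against control siRNA, grouped by role from top to bottom; points are differences between means of 4 arrays, bars are standard errors, blue is mix 1 and orange is mix 2. All points lie left of 0, with CDC45 (-3.92) and PRIM1 (-3.85) farthest left with mix 2 and RPA3 (-0.22) nearest to 0.

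The 5 ORC subunits of the list fell by very different amounts. ORC1, the subunit whose level is known to vary over the cell cycle, had log2 values of 7.69, 7.73, 7.83 and 7.67 in control replicates A to D, 5.63, 5.41, 5.25 and 5.34 with mix 1 and 4.71, 4.75, 5.0 and 4.67 with mix 2. The 3 groups did not overlap, and the changes were -2.32 (SE 0.09, adjusted p = 1.34e-11) and -2.95 (SE 0.09, adjusted p = 9.05e-13). Its group means with the mixes, 5.41 and 4.78, lay below the filter value of 5.46, near array background, where a fold change can be understated. ORC1 was the single gene of the list for which a group mean fell that low. ORC6, the smallest subunit, read 10.79 to 10.92 with control siRNA and 8.97 to 9.34 with mix 1. With mix 2 its values were 8.20, 8.15, 8.20 and 8.75, so replicate D stood above the other three but below every mix 1 array. Its changes were -1.70 (SE 0.12) and -2.54 (SE 0.12).

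The ORC subunits of the stable core changed less. ORC3 had values of 9.45, 9.55, 9.52 and 9.50 in the control arrays, 9.19, 9.15, 9.06 and 9.18 with mix 1 and 9.10, 9.23, 9.25 and 8.90 with mix 2. Each mix lay below control and the mixes overlapped each other, with changes of -0.36 (SE 0.07, adjusted p = 0.000487) and -0.38 (SE 0.07, adjusted p = 0.000261), or 77.9% and 76.6% of the control level. ORC2 changed by -0.71 and -0.43 (SE 0.07 each) and ORC5 by -1.14 and -1.24 (SE 0.07 each). For ORC2 the value depended on the probe set: a dimmer probe set gave 0.20 with mix 1 (adjusted p = 0.0672) and -0.38 with mix 2 (adjusted p = 0.00139). ORC4, the core subunit outside the list and named here after its values were seen, rose by 0.18 (adjusted p = 0.00832) and 0.25 (adjusted p = 0.000998). Measured ORC mRNAs therefore ranged from the small rise of ORC4 to the fall of ORC1.

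The genes of the licensing step all fell more than 2-fold. All 3 were called lower with mix 2 than with mix 1, as were 25.0% of all genes. For CDT1 that difference was small on its other probe set, -0.26 (adjusted p = 0.0499). CDC6, the ATPase that joins ORC to load the helicase, had values of 9.76, 9.83, 9.90 and 9.86 in the control arrays, 7.41, 6.84, 7.42 and 7.16 with mix 1 and 6.45, 6.19, 6.32 and 6.03 with mix 2. The 3 groups formed separate steps, with changes of -2.63 (SE 0.12, adjusted p = 6.96e-11) and -3.59 (SE 0.12, adjusted p = 2.27e-12), and 16.2% and 8.30% of the control level left. CDT1, the partner that brings MCM to the origin, read 9.22, 9.33, 9.12 and 9.26, then 7.19, 7.10, 7.21 and 7.35, then 6.17, 5.70, 6.16 and 6.12 in the same order. Again no arrays of different groups overlapped, and the changes were -2.02 (SE 0.10) and -3.19 (SE 0.10). GMNN, which restrains CDT1, changed by -1.17 and -1.39 (SE 0.06 each), from 12.33 to 12.39 with control siRNA to 11.11 to 11.24 and 10.85 to 11.09. Both the loader CDT1 and its inhibitor thus had lower mRNA, with the larger log2 change for the loader.

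**Figure D3:**
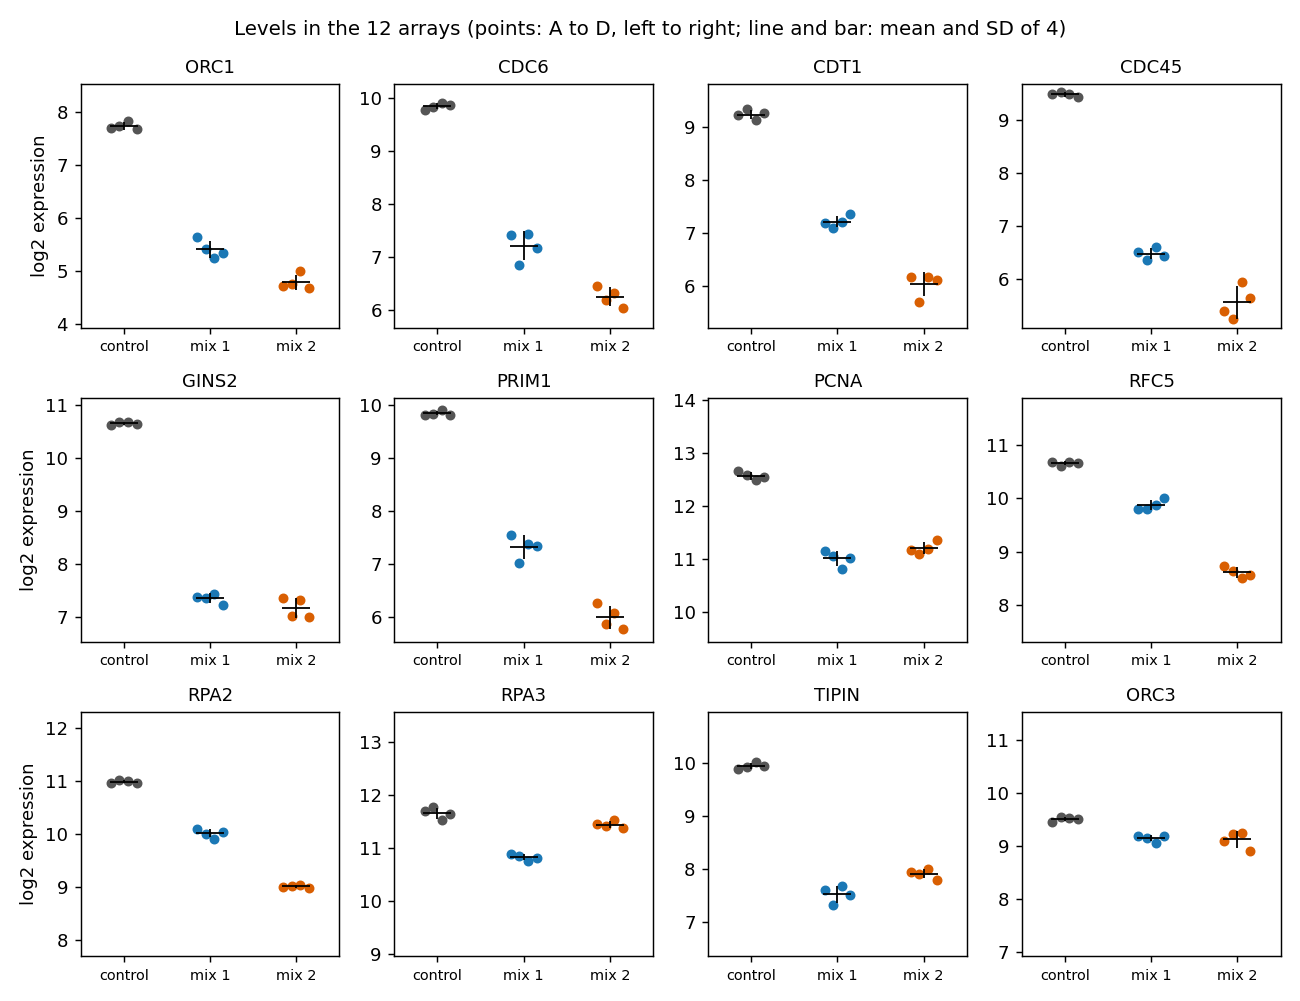
Log2 expression in each of the 12 arrays for 12 of the genes, with control siRNA in grey, mix 1 in blue and mix 2 in orange; points are replicates A to D from left to right, horizontal lines are means and vertical bars are SDs of 4 arrays, and each y axis spans the same number of log2 units. Most of these 12 genes show 3 separate levels, while PCNA, GINS2 and ORC3 have overlapping mix 1 and mix 2 arrays and RPA3 with mix 2 lies near its control. The 12 do not stand for the whole list: the arrays of the 2 mixes overlapped for 23 of the 47 genes.

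Both subunits of the origin-firing kinase fell. CDC7, the catalytic subunit, had values of 9.71, 9.73, 9.75 and 9.84 in the control arrays, 8.48, 8.33, 8.36 and 8.39 with mix 1 and 8.11, 7.88, 8.06 and 8.02 with mix 2. No groups overlapped, and the changes were -1.37 (SE 0.06) and -1.74 (SE 0.06). DBF4, the activator that CDC7 needs, changed by -1.62 and -2.19 (SE 0.10 each), from 10.89 to 11.12 with control siRNA to 9.10 to 9.53 with mix 1 and 8.62 to 8.99 with mix 2.

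CDC45 and the GINS complex, which turn loaded MCM into a working helicase, included the genes with the deepest falls of the list. CDC45 had values of 9.49, 9.53, 9.50 and 9.43 in the control arrays, 6.52, 6.37, 6.60 and 6.44 with mix 1 and 5.41, 5.25, 5.95 and 5.65 with mix 2. All groups were apart, with changes of -3.0 (SE 0.12, adjusted p = 1.50e-11) and -3.92 (SE 0.12, adjusted p = 7.94e-13), which left 12.5% and 6.59% of the control level. With mix 2 only 11 of the 13225 genes had a lower log2 change than CDC45. CDC45 had 1 probe set, of the kind that can bind related transcripts, so it was left out of the fit without shared probe sets. Its mix 2 values of 5.41 and 5.25 lay below the filter value of 5.46, near array background. GINS2 read 10.62, 10.67, 10.68 and 10.64 in the control arrays, 7.38, 7.36, 7.44 and 7.22 with mix 1 and 7.35, 7.02, 7.32 and 7.0 with mix 2. The GINS2 changes of -3.30 and -3.48 (SE 0.08 each) put it at place 13 and 29 among all genes, and the 2 mixes overlapped. This rests on a probe set of a shared kind, one that can bind related transcripts: the 2 other GINS2 probe sets gave -0.27 and -0.67 with mix 1 and -0.12 (adjusted p = 0.308) and -1.01 with mix 2.

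The 4 GINS subunits, which form 1 tetramer, did not fall by equal amounts on their brightest probe sets. GINS1 changed by -2.62 and -2.88 (SE 0.07 each), from 10.78 to 10.93 down to 8.11 to 8.42 and 7.88 to 8.02. GINS3 changed by -1.88 and -2.71 (SE 0.09 each). GINS4 had values of 8.47, 8.56, 8.78 and 8.71 in the control arrays, 7.51, 7.45, 7.76 and 7.73 with mix 1 and 7.80, 7.56, 7.84 and 7.48 with mix 2; its changes of -1.02 (SE 0.10, adjusted p = 3.92e-07) and -0.96 (SE 0.10, adjusted p = 6.87e-07) were close to 2-fold. GINS4 therefore stood clear of its control arrays but kept 49.4% and 51.4% of its level, where GINS2 kept 10.1% and 8.96%, each on its brightest probe set. A dimmer GINS4 probe set above the filter value gave -0.58 and -0.72. Those below it gave -0.66 with each mix, and -0.34 with mix 1 and -0.22 with mix 2 (adjusted p = 0.191). The contrast with GINS2 thus depended on the probe sets used. TOPBP1, a scaffold that helps load CDC45, changed by -1.22 and -1.44 (SE 0.07 each). RECQL4, a helicase needed for the same step, changed by -1.12 and -1.35 (SE 0.09 each).

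All 4 subunits of polymerase alpha-primase fell more than 2-fold. PRIM1, the catalytic primase subunit that makes the RNA primer, had values of 9.82, 9.83, 9.90 and 9.82 in the control arrays, 7.55, 7.01, 7.37 and 7.34 with mix 1 and 6.26, 5.87, 6.08 and 5.77 with mix 2. The 3 groups were apart from each other, and the changes were -2.52 (SE 0.11, adjusted p = 6.94e-11) and -3.85 (SE 0.11, adjusted p = 7.95e-13). POLA1, the catalytic polymerase subunit, read 8.71, 8.81, 8.78 and 8.71, then 6.85, 6.65, 6.83 and 6.83, then 5.94, 5.93, 6.09 and 5.88. It too formed 3 separate levels, with changes of -1.96 and -2.79 (SE 0.06 each). The regulatory subunits POLA2 (-1.78 and -1.72, SE 0.11 each) and PRIM2 (-1.56 and -1.86, SE 0.12 each) had overlapping mix 1 and mix 2 arrays. POLA2 rested on 1 probe set of a shared kind, one that can bind related transcripts. Its 2 other probe sets, both dimmer than the filter value, gave 0.02 and 0.03 for the first and -0.24 and -0.38 for the second.

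The 3 listed subunits of polymerase delta fell with each mix. POLD1, the catalytic subunit, changed by -1.78 and -1.92 (SE 0.08 each), from 8.72 to 8.92 with control siRNA to 6.98 to 7.19 and 6.76 to 7.15. POLD2 changed by -0.72 and -1.11 (SE 0.08 each), and POLD3, an accessory subunit that contacts PCNA, by -1.19 and -1.31 (SE 0.07 each). POLD4, the smallest subunit of the same enzyme and not in the list of 47, moved the other way: it rose by 2.12 (SE 0.10, adjusted p = 1.85e-10) and 2.48 (SE 0.10, adjusted p = 2.83e-11), from a mean of 7.45 to 9.56 and 9.92. POLD4 protein is known to be degraded in S phase and after DNA damage.

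The 3 listed subunits of polymerase epsilon fell too. POLE2, the accessory subunit that is part of the CMG-bound enzyme, had values of 11.34, 11.32, 11.35 and 11.32 in the control arrays, 9.12, 8.86, 8.93 and 9.08 with mix 1 and 8.74, 8.73, 8.78 and 8.52 with mix 2. All groups were apart and the changes were -2.33 and -2.64 (SE 0.07 each). POLE, the catalytic subunit, changed by -1.20 and -1.66 (SE 0.12 each). POLE3, a small histone-fold subunit, changed by -0.89 and -1.61 (SE 0.05 each). Its partner POLE4, outside the list and named after its values were seen, changed by -0.47 with mix 1 (adjusted p = 6.85e-06), while its mix 2 value of 0.13 did not pass (adjusted p = 0.0687).

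**Figure D4:**
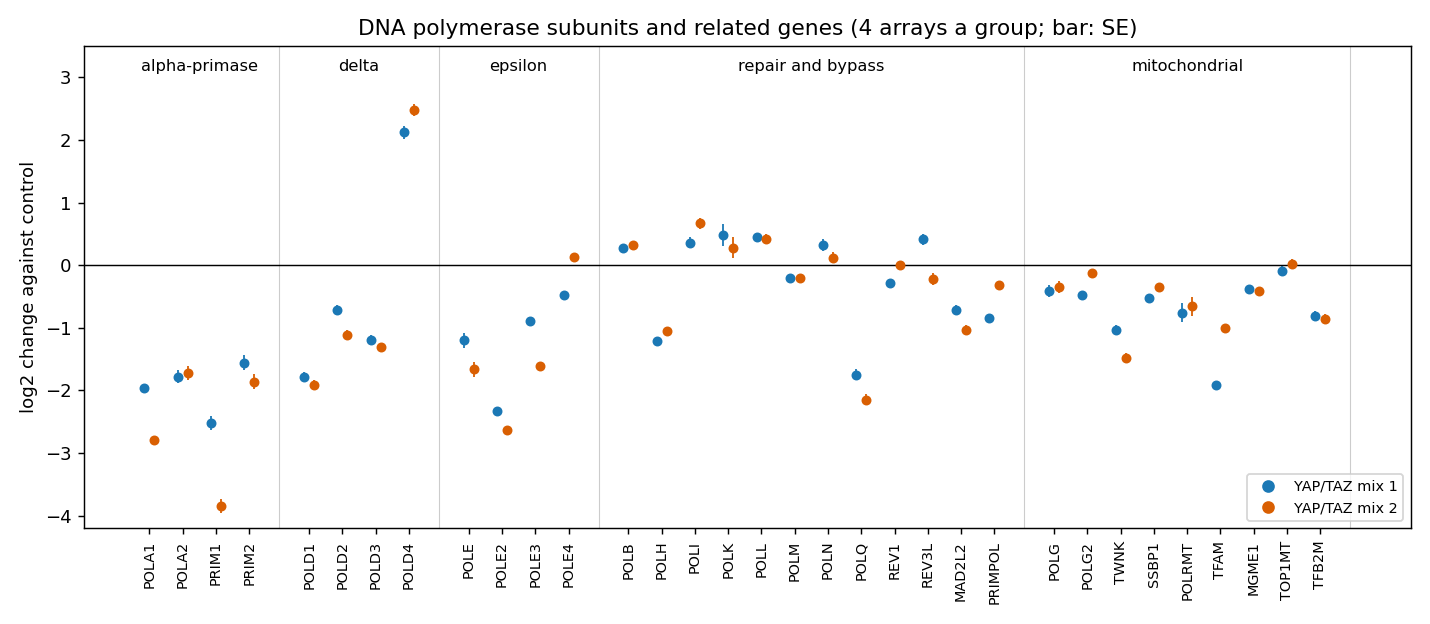
Log2 change against control siRNA of DNA polymerase subunits and related genes, in blocks for the alpha-primase, delta and epsilon enzymes, the repair and bypass polymerases and the mitochondrial replication genes; points are differences between means of 4 arrays, bars are standard errors, blue is mix 1 and orange is mix 2. The 10 listed subunits lie below 0 while POLD4 lies above 2, and the repair and bypass polymerases spread on both sides of 0.

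PCNA, the sliding clamp, had values of 12.66, 12.58, 12.48 and 12.54 in the control arrays, 11.15, 11.06, 10.81 and 11.02 with mix 1 and 11.16, 11.09, 11.18 and 11.36 with mix 2. The mixes overlapped each other and lay more than a log2 unit below control, with changes of -1.56 (SE 0.08, adjusted p = 2.61e-10) and -1.37 (SE 0.08, adjusted p = 9.03e-10). The 5 subunits of the loader RFC fell unequally. RFC3 changed by -2.35 and -2.44 (SE 0.07 each), RFC4 by -2.09 and -2.26 (SE 0.09 each) and RFC2 by -1.33 and -1.59 (SE 0.08 each). Dimmer RFC3 probe sets above the filter value gave -2.60 and -2.65 on a shared one, but -0.44 and -0.58 on an unshared one. RFC2, RFC3 and RFC4 are small subunits that the replication loader shares with the alternative loaders that act in the checkpoint and in cohesion.

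RFC1, the large subunit particular to the replication loader, changed little. It had values of 9.74, 9.81, 9.87 and 9.78 in the control arrays, 9.42, 9.28, 9.49 and 9.53 with mix 1 and 9.62, 9.50, 9.67 and 9.39 with mix 2. Each mix lay below control, and the changes were -0.37 (SE 0.07, adjusted p = 0.000373) and -0.25 (SE 0.07, adjusted p = 0.00607). These come from a shared probe set; another shared RFC1 probe set gave -0.59 and -0.39, and the unshared one, below the filter value, gave -0.10 and -0.04, neither of which passed (adjusted p = 0.470 and 0.791). DSCC1, a subunit of the alternative loader that acts in sister chromatid cohesion, was at 10.22 to 10.25 in the control arrays, 7.48 to 7.60 with mix 1 and 7.01 to 7.55 with mix 2. Its changes were -2.70 and -2.96 (SE 0.09 each), while its other, dimmer probe set gave -0.03 (adjusted p = 0.832) and -0.12 (adjusted p = 0.313).

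The 3 genes of Okazaki fragment processing fell. FEN1, the flap endonuclease, had values of 12.65, 12.69, 12.74 and 12.71 in the control arrays, 10.72, 10.61, 10.69 and 10.73 with mix 1 and 9.96, 9.98, 9.88 and 9.57 with mix 2. The 3 levels were apart, with changes of -2.01 and -2.85 (SE 0.08 each). DNA2, the nuclease for long flaps, changed by -2.07 and -2.66 (SE 0.14 each), from 8.53 to 8.89 with control siRNA to 6.25 to 6.96 and 5.89 to 6.34. LIG1, the ligase that seals the fragments, changed by -1.49 and -1.44 (SE 0.09 each), and its mix 1 and mix 2 arrays overlapped.

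The 3 subunits of RPA, a trimer that coats single-stranded DNA, were lower than control, and RPA2 and RPA3 differed between the mixes in opposite directions. RPA1, the large subunit, changed by -0.62 and -0.71 (SE 0.05 each) on its brightest probe set and by -0.71 and -0.76 on a shared one, while a dimmer unshared probe set above the filter value gave 0.11 (adjusted p = 0.334) and -0.08 (adjusted p = 0.496). RPA2 had values of 10.96, 11.01, 10.99 and 10.95 in the control arrays, 10.08, 10.00, 9.90 and 10.04 with mix 1 and 8.99, 9.02, 9.04 and 8.98 with mix 2. These are 3 separate levels about 1 log2 unit apart, with changes of -0.97 and -1.97 (SE 0.05 each). RPA3, the small subunit, read 11.69, 11.77, 11.52 and 11.64 in the control arrays, 10.89, 10.84, 10.76 and 10.82 with mix 1 and 11.45, 11.41, 11.53 and 11.37 with mix 2. Mix 1 lay below control by -0.83 (SE 0.06, adjusted p = 2.15e-08), while mix 2 replicate C at 11.53 overlapped control replicate C at 11.52, with a change of -0.22 (SE 0.06, adjusted p = 0.00711). RPA2 and RPA3 each had 1 probe set.

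Of the 4 fork protection genes, CLSPN, WDHD1 and TIPIN were among the 100 deepest falls with mix 1 and TIMELESS was not. CLSPN, the claspin adaptor that links the fork to the checkpoint kinase, had values of 9.20, 9.24, 9.17 and 9.11 in the control arrays, 6.65, 6.52, 6.35 and 6.43 with mix 1 and 6.02, 6.16, 6.31 and 6.11 with mix 2. No groups overlapped, and the changes were -2.69 and -3.03 (SE 0.08 each). WDHD1, which couples the helicase to polymerase alpha, changed by -2.60 and -2.89 (SE 0.12 each). TIPIN, the partner of TIMELESS, read 9.88, 9.92, 10.01 and 9.94, then 7.60, 7.31, 7.68 and 7.50, then 7.95, 7.90, 7.99 and 7.80. Here every mix 2 array lay above every mix 1 array, and the changes were -2.42 and -2.03 (SE 0.08 each). TIMELESS showed the same order, with values of 8.99 to 9.06, 7.11 to 7.57 and 7.69 to 7.89, and changes of -1.63 and -1.23 (SE 0.09 each).

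Genes that pack new DNA into chromatin fell as well. CHAF1A and CHAF1B, subunits of the assembly factor CAF-1 that places histones behind the fork, changed by -1.60 and -1.61 (SE 0.09 each) and by -1.29 and -1.37 (SE 0.11 each). SLBP, which binds the stem-loop of histone mRNAs, lay between 11.99 and 12.01 with control siRNA and read 11.08, 10.94, 10.97 and 11.11 with mix 1 and 10.33, 10.43, 10.30 and 10.34 with mix 2. Its 3 levels were apart, and the changes were -0.98 and -1.65 (SE 0.06 each).

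The mix 2 minus mix 1 difference of the targets themselves was -0.06 (adjusted p = 0.730) in YAP1 and -0.12 (adjusted p = 0.344) in WWTR1 on their brightest probe sets; 2 further YAP1 probe sets gave -0.48 (adjusted p = 0.0406) and -0.20 (adjusted p = 0.0409), and 2 further WWTR1 probe sets -0.02 (adjusted p = 0.924) and 0.28 (adjusted p = 0.0760). In the comparison of mix 2 with mix 1, 25 of the 47 genes were called lower and 4 higher, against 25.0% and 28.7% of all genes, and 18 did not pass the test. By point value 38 were lower and 9 higher with mix 2, with a median difference of -0.26 against 0.02 for all genes. All mix 2 arrays lay below all mix 1 arrays for 21 of the 47 genes and above them for 3, and 23 overlapped. Over all 13225 genes these counts were 2876, 3219 and 7130. On the brightest probe sets a difference of 2-fold or more was found for 3 genes: PRIM1 (-1.32, SE 0.11, adjusted p = 1.94e-07), RFC5 (-1.27, SE 0.06, adjusted p = 8.18e-10) and CDT1 (-1.18, SE 0.10, adjusted p = 1.41e-07). RPA2 followed with -1.0 (SE 0.05, adjusted p = 1.27e-09), and CDC6 with -0.96 (SE 0.12, adjusted p = 7.76e-06). Dimmer probe sets passed 2-fold for CDC6 (-1.10, adjusted p = 1.78e-06) and GINS3 (-1.04, adjusted p = 1.01e-06), while those of RFC5 and CDT1 did not.

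RFC5, a small subunit of the clamp loader, was the gene with the largest gap between the mixes after PRIM1. It had values of 10.69, 10.61, 10.68 and 10.67 in the control arrays, 9.80, 9.81, 9.88 and 10.01 with mix 1 and 8.72, 8.64, 8.50 and 8.56 with mix 2. The changes were -0.79 (SE 0.06) with mix 1 and -2.06 (SE 0.06) with mix 2. Its 2 other probe sets gave larger falls with mix 1, -1.75 and -2.03, and -2.65 and -2.84 with mix 2, so that their differences between the mixes were -0.90 and -0.81. CDT1 also had a second probe set, of the shared kind like the first, for which the difference was -0.26 (adjusted p = 0.0499).

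The 4 genes that were higher with mix 2 than with mix 1 were RPA3 (0.61, SE 0.06, adjusted p = 1.28e-06), TIMELESS (0.40, SE 0.09, adjusted p = 0.00146), TIPIN (0.39, SE 0.08, adjusted p = 0.000558) and ORC2 (0.28, SE 0.07, adjusted p = 0.00398). For ORC2 the dimmer probe set had the opposite sign (-0.58, adjusted p = 5.28e-05), so its direction between the mixes is not settled. TIMELESS and TIPIN encode the partners of the fork protection heterodimer. CHAF1A showed no difference on its brightest probe set (-0.01, SE 0.09), whereas 2 other probe sets gave -0.55 (adjusted p = 0.000584) and -0.69 (adjusted p = 0.000360). Leaving out single arrays ended the call between the mixes for DSCC1 and RFC2, whose differences were -0.26 (SE 0.09, adjusted p = 0.0298) and -0.25 (SE 0.08, adjusted p = 0.0204). Without mix 1 replicate A, mix 2 replicate B or mix 2 replicate D neither passed; without mix 1 replicate B DSCC1 did not pass, and without mix 1 replicate C RFC2 did not. The adjusted p was then 0.0641 to 0.0900 for DSCC1 and 0.0506 to 0.0587 for RFC2.

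Other members gained a call between the mixes when an array was left out. GINS2 passed without mix 1 replicate D or mix 2 replicate A or C (-0.22 to -0.24, adjusted p = 0.0284 to 0.0481), and RECQL4 without mix 1 replicate D or mix 2 replicate C (-0.28 and -0.29, adjusted p = 0.0323 and 0.0224). PRIM2 passed without mix 1 replicate C (-0.36, adjusted p = 0.0287) or mix 2 replicate D (-0.41, adjusted p = 0.00291), and WDHD1 without replicate C of mix 1 (-0.39, adjusted p = 0.00698) or mix 2 (-0.34, adjusted p = 0.0341). These 4 genes were lower with mix 2 in every such fit. The 2 other WDHD1 probe sets passed with all arrays, at -0.73 (adjusted p = 4.70e-05) and -0.46 (adjusted p = 0.00484), and the mean of its probe sets at -0.49 (adjusted p = 0.000411). POLD1 passed as lower without mix 2 replicate A (-0.21, adjusted p = 0.0407) and RFC4 without mix 1 replicate B (-0.25, adjusted p = 0.0140). PCNA passed as higher without mix 1 replicate A (0.23, adjusted p = 0.0288) or mix 2 replicate B (0.22, adjusted p = 0.0428).

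**Figure D5:**
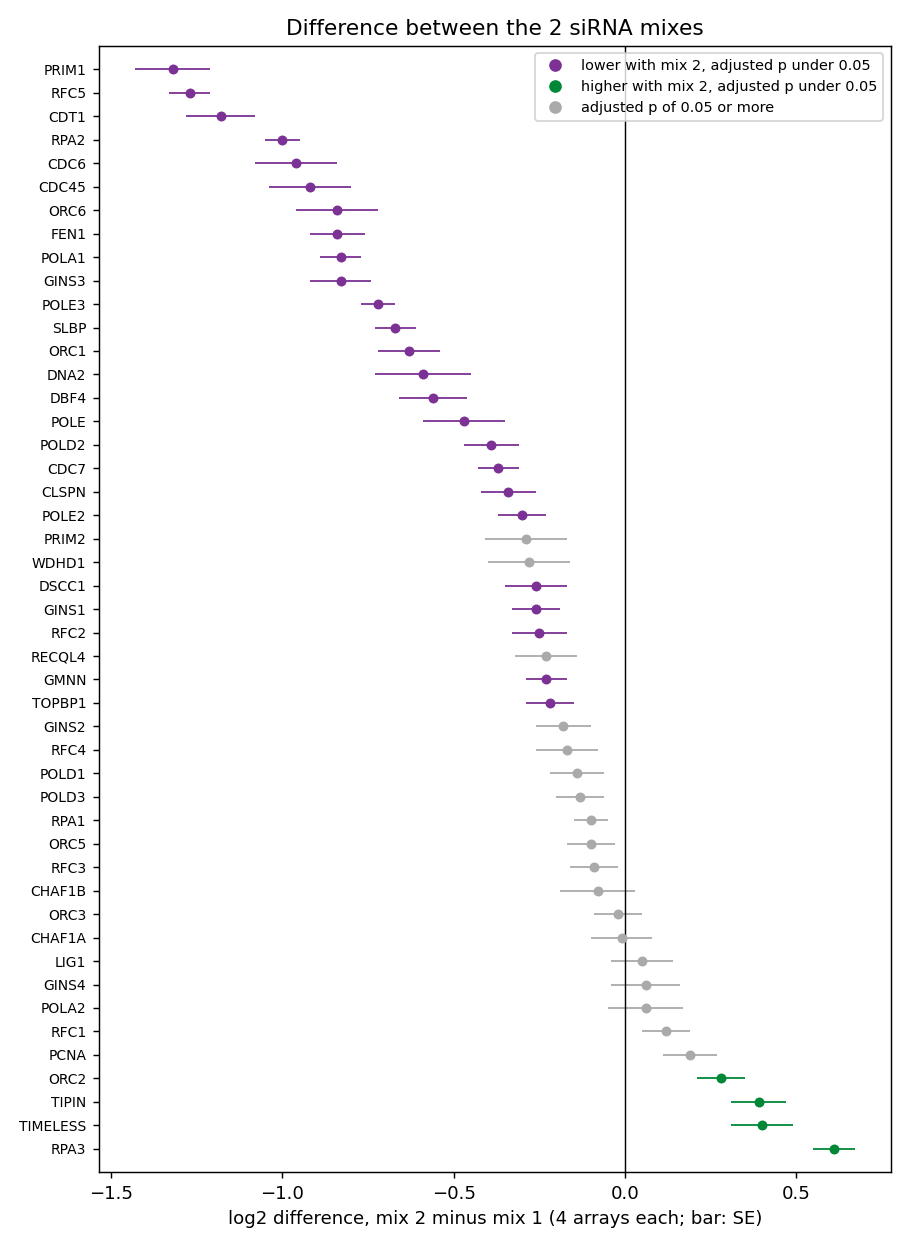
Log2 difference between the 2 siRNA mixes (mix 2 minus mix 1) for each of the 47 genes, sorted from lowest at the top to highest at the bottom; points are differences between means of 4 arrays and bars are standard errors. Purple marks 25 genes lower with mix 2, green 4 genes higher and grey 18 genes that did not pass an adjusted p of 0.05.

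The replicates agreed closely. The median SD of the 47 genes over 4 arrays was 0.05 in the control arrays, 0.10 with mix 1 and 0.15 with mix 2. With mix 2, replicate D was the lowest array of its group for 29 of the 47 genes, with a median deviation of -0.11 from the group mean, and replicate C deviated by 0.09. Without any single array, all 47 genes stayed lower than control with each mix at the same threshold.

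Probe sets were compared where a gene had several. Of the 47 genes, 26 had 1 probe set and 21 had more, which gave 35 further probe sets. Of the 24 brighter than the filter value, 21 were called lower with each mix and 0 higher. Of the 11 dimmer ones, 8 were called lower with mix 1 and 7 with mix 2, and 0 higher. The share called over all probe sets was not computed, and over all genes 32.3% and 31.9% were called lower. A call did not mean a fall of like size. Unshared probe sets above the filter value gave -0.44 and -0.58 for RFC3 and -0.58 and -0.72 for GINS4, less than their brightest ones. Probe sets of a shared kind stood for 19 of the genes. For 9 genes, CDC45 among them, every probe set was of this kind. For GINS2, RFC1, POLA2 and DSCC1, described above, the unshared probe sets gave smaller changes or none that passed. Unshared probe sets below the filter value also gave smaller falls for CHAF1A (-0.30 and -0.44) and TIMELESS (-0.54 and -0.37). The 2 other shared CHAF1A probe sets gave -1.49 and -1.28 with mix 1 and -2.04 and -1.97 with mix 2. CDC6 and GINS3 gave close values on an unshared probe set, -2.43 and -3.53 for CDC6 and -1.98 and -3.02 for GINS3.

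The MCM helicase itself, which the listed genes load and activate, fell as a whole. All 6 subunits passed as lower with each mix (32.3% and 31.9% of all genes did so), with median changes of -1.90 and -1.99. MCM2 changed by -2.48 and -3.38 (SE 0.14 each), MCM3 by -1.72 and -1.97 (SE 0.07 each) and MCM4 by -2.09 and -2.06 (SE 0.10 each). MCM5 changed by -1.45 and -1.96 (SE 0.11 each), MCM6 by -2.12 and -2.0 (SE 0.05 each) and MCM7 by -1.27 and -1.93 (SE 0.09 each).

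Other replication factors moved less uniformly than the 47 genes. Of 24 such genes 22 were tested, with 17 lower and 5 higher with mix 1, 15 lower and 4 higher with mix 2, and medians of -1.34 and -1.25. Over all genes, 32.3% were lower and 34.8% higher with mix 1, and 31.9% and 36.7% with mix 2. The lowest were DTL, a substrate receptor of the ubiquitin ligase that removes CDT1 (-2.82 and -3.75), and MCM10, a helicase activator (-2.65 and -3.52). The highest were POLD4 and ASF1A, a histone chaperone (0.51 and 0.94). MTBP was not tested because its mean over all arrays was below the filter value, though it read 6.12 in the control arrays. With mix 1 and mix 2 it read 4.40 and 4.23. MMS22L had no probe set naming it alone.

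Polymerases that act in repair and damage bypass were called in both directions. Of 12 such genes, 6 were lower and 6 higher with mix 1, and 6 were lower and 3 higher with mix 2, with medians of 0.03 and -0.10. The shares over all genes were 32.3% lower and 34.8% higher with mix 1, and 31.9% and 36.7% with mix 2, so the 3 higher with mix 2 are no more than such a share. POLQ, the polymerase of an end-joining pathway, changed by -1.75 and -2.15, and POLH, which copies past ultraviolet damage, changed by -1.21 and -1.05. POLI, another bypass polymerase (0.36 and 0.67), and POLL, which fills gaps during end joining (0.45 and 0.42), rose.

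Most genes of mitochondrial DNA replication fell. Of 9 tested, 8 were lower with mix 1 (32.3% of all genes) and 7 with mix 2 (31.9%), none passed as higher with limma, and the medians were -0.53 and -0.41. TFAM, which packages mitochondrial DNA, changed by -1.91 and -1.0, and the helicase TWNK by -1.04 and -1.48. Those nearest to 0 among the genes that fell with both mixes were POLG, the mitochondrial polymerase (-0.41 and -0.35), and the nuclease MGME1 (-0.38 and -0.41).

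Of the replication checkpoint genes 9 were tested; 6 were lower and 2 higher with mix 1, and 7 lower and 2 higher with mix 2, with medians of -0.51 and -0.53. This compares with 32.3% lower and 34.8% higher among all genes with mix 1, and 31.9% and 36.7% with mix 2. CDC25A, the phosphatase that frees cyclin-dependent kinases for S phase, changed by -2.40 and -4.06, and the kinase CHEK1 by -0.70 and -1.75. ETAA1, an activator of the kinase ATR, rose by 0.61 and 1.01. WEE1, which inhibits cyclin-dependent kinases, passed as higher with mix 1 (0.21) and as lower with mix 2 (-0.19). ATRIP had no usable probe set here.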

How the data were processed

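The values are log2 expression, deposited by the authors as 1 table for 12 Affymetrix U133 Plus 2.0 arrays. RMA is named in the submitters' processing notes; software and version: not given in the sources used here. RMA gives all arrays a common distribution, so a shift of all genes together would not show; array medians were 5.69 to 5.78. Of 54675 probe sets, 41097 had exactly 1 gene symbol, 1801 several and 11777 none here. Through gene IDs, 41043 symbols were updated from the RefSeq table of GRCh38.p14, which also named the promoter windows; 54 stayed as annotated. Without 62 control probe sets, 41091 naming 19775 genes remained. Those averaging more than the 40th percentile (5.46 log2) were kept, 24650 in all, and the brightest probe set stood for each of 13225 genes.

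Differences were fitted with limma 3.58.1 in R 4.3.3 as 3 group means (9 residual degrees of freedom) with default eBayes; p-values are two-sided and adjusted by Benjamini-Hochberg over all genes of a comparison, with a threshold of 0.05. The p-values of further probe sets of a gene were adjusted over all 41091 probe sets. Errors are standard errors of the fit, or SDs where stated. RNA quality was tested with scipy 1.17.1. Arrays have no read depth; their number limits the precision. The scripts were tested on simulated data.

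The genes named are all members, YAP1, WWTR1, MCM2 to MCM7, all markers, and from each further list the 2 lowest and 2 highest by mean change among genes past the threshold with both mixes; ORC4 and POLE4 were named after their values were seen. Members and lists were chosen with earlier results of these data known. The series text says that replicates were handled in parallel but not what a letter stands for. Deviations from the group means of same-letter arrays correlated at 0.251 to 0.409 between control and mix 1, at 0.034 to 0.212 between control and mix 2, and at -0.085 to 0.273 between the mixes. Same-letter arrays passed a limit of 0.1 in every pair only between control and mix 1. Arrays of different letters reached similar values there: 0.374 for control A with mix 1 B, 0.232 for control B with mix 1 A and 0.286 for control C with mix 1 D. Other different-letter pairs were negative, down to -0.428 for control C with mix 1 A. A letter is therefore not shown to mark a pair. The alternatives were other filters, probe set rules, centring, a replicate block, fits on 2 groups, other variance settings and leaving out each array.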

Additional observations from a re-analysis of the deposited data

Results flagged for a closer look

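Of 141 groups of 4 arrays (47 genes in 3 groups), 7 held an array far from the other three by Dixon's test, where chance gives about 1 in 20. With mix 2, replicate D was high for ORC6 (8.75 log2, group median 8.20) and replicate B was low for CDT1 (5.70, median 6.14). With mix 1, replicate D was low for GMNN (11.11, median 11.23) and POLD2 (8.78, median 8.93), and replicate B was low for POLA1 (6.65, median 6.83). With control siRNA, replicate C was high for PRIM1 (9.90, median 9.82) and low for RFC3 (10.99, median 11.04). None of the 7 arrays crossed into the range of another group for its gene.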

How the results depend on the processing

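All 47 genes stayed lower than control with each mix under no filter, averaging each gene's probe sets, centred arrays, the replicate block, fits on 2 groups, other variance settings and the omission of any single array. With a filter at the 60th percentile it was 44 of 44 genes, and without shared probe sets 33 of 36 with mix 1 and 32 of 36 with mix 2. Among all genes, 3785 and 3760 of 9779 were lower with that filter, and 3270 and 3389 of 11317 without shared probe sets. Between the mixes, 17 of 36 to 29 of 47 genes were lower and 3 to 5 higher under these settings, and 23 to 28 lower and 4 to 5 higher without single arrays. Without shared probe sets, 2784 of all 11317 genes were lower and 2787 higher. With averaged probe sets, 3403 of all 13225 were lower and 3602 higher. Without single arrays, 3086 to 3280 were lower and 3466 to 4078 higher. The replicate block gave 27 lower and 5 higher (3520 and 4050 of all 13225 genes), with GINS2, WDHD1 and PCNA then passing and no call lost. DSCC1 lost its call between the mixes in the fit on 2 groups (adjusted p = 0.0623), without single arrays (up to 0.0900) and without shared probe sets (-0.09, adjusted p = 0.409). Signs turned for ORC2 (0.20 with mix 1 on a dimmer probe set; between the mixes -0.58 on that probe set and -0.15 for the mean of its probe sets), POLA2 (0.02 with mix 1 and 0.03 with mix 2, without shared probe sets and on a dim probe set), RPA1 (0.11 with mix 1 on a dimmer probe set above the filter value) and CLSPN (0.06 between the mixes on a dim probe set); the cause was not tested. Levels near background, as for ORC1 with the mixes, limit how large a fall the arrays can show.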
